A study of Mus musculus with 8 samples.

Results

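The 9 genes described here belong to the pathway that turns an adrenergic signal into cyclic AMP (cAMP): the beta-3 adrenergic receptor *Adrb3*, the adenylyl cyclases *Adcy3*, *Adcy4*, *Adcy6*, *Adcy7* and *Adcy9*, the regulatory subunit *Prkar2b* of protein kinase A, and the phosphodiesterases *Pde3b* and *Pde4d*. They are 9 of the 31053 genes counted, and all 9 were among the 10181 genes with enough reads to be tested. The genes were chosen with their values in both cell states known, so their differences between the cell states are given as a description, without a test. Their mRNA was measured in fibro/adipogenic progenitors (FAPs), mesenchymal cells of skeletal muscle that can become adipocytes or fibroblasts. FAPs came from the hind limb muscles of *mdx* mice of the strain C57BL/10ScSn-Dmdmdx/J, aged 45 days, which lack dystrophin and model Duchenne muscular dystrophy. Cells negative for CD45, CD31 and Integrin alpha-7 and positive for SCA-1 were sorted by the level of surface SCA-1 into SCA1-High-FAPs and SCA1-Low-FAPs, the latter named as the control in the study's design. Both cell states were then grown for 5 days in growth medium with serum, without adipogenic induction and without any adrenergic agonist named in the protocols. There were 4 biological replicates per cell state, which the design describes as isolated from 4 mice for 8 samples in all. The cell states may therefore share mice, but which samples share one is not stated. No group of wild type mice was sequenced, so all 8 samples carry the *mdx* mutation.

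Beta-adrenergic receptors bind noradrenaline and adrenaline and activate the stimulatory G protein, which switches on adenylyl cyclases, the membrane enzymes that make cAMP from ATP. The cAMP binds the regulatory subunits of protein kinase A and frees the catalytic subunits, while phosphodiesterases break cAMP down and end the signal. In rodent adipocytes the beta-3 receptor is the characteristic beta-adrenergic receptor, and the kinase it engages phosphorylates perilipin and hormone-sensitive lipase to start the release of fatty acids from stored triglyceride. Insulin opposes this step in part through phosphodiesterase 3B.

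The depth on genes ran from 1880561 to 3985656 reads. Shares were also taken of all reads on genes, on no gene, ambiguous or not unique in alignment. Reads not unique made up 37.5% to 39.7% in SCA1-High-FAPs, compared with 40.8% to 43.3% in SCA1-Low-FAPs. Reads on no gene made up 9.35% to 10.2% and 7.87% to 8.83%. The cell states thus did not overlap in either share, and an effect on the genes below was not tested. The libraries were made from the 3′ ends of mRNA, so the CPM given here, which are counts scaled to a common library size, are tags per transcript end and are not divided by length. A level of 3 counts, taken as the least that the depth can show, corresponded to 0.792 to 1.63 CPM by sample on this scale, for counting error only. Log2 fold changes take SCA1-High-FAPs as the denominator, so negative values stand for more mRNA in SCA1-High-FAPs. A gene was called when its adjusted *p*-value in the quasi-likelihood test of edgeR was under 0.05 and its log2 fold change exceeded 0.5 in size. The mRNA of *Ly6a*, which encodes SCA-1, was higher in the samples labelled SCA1-Low (log2 fold change 0.61, SE 0.17, edgeR adjusted *p* = 0.0341), whereas the sort was made on the surface protein 5 days of culture earlier. FAP markers summed to 7956 to 10595 CPM in SCA1-High-FAPs, compared with 6873 to 10098 CPM in SCA1-Low-FAPs, most of it *Col1a1*. Of the 7 FAP markers, all tested, *Dcn* was called higher in SCA1-High-FAPs (log2 fold change −2.08, SE 0.39, edgeR adjusted *p* = 0.0167), while *Thy1*, like *Ly6a*, was called higher in SCA1-Low-FAPs (0.67, SE 0.15, edgeR adjusted *p* = 0.0105). The 6 adipocyte markers summed to 1025 to 5372 CPM in SCA1-High-FAPs, compared with 108.5 to 623 CPM in SCA1-Low-FAPs, with *Lep* at 0 in every sample and 1 of the 4 tested markers, *Adipoq*, called. Myogenic, endothelial and leucocyte markers summed to at most 12.5, 7.39 and 10.9 CPM in any sample, and *Pax7*, *Myf5*, *Myod1*, *Myog*, *Adgre1*, *Itgam* and *Tyrobp* had no count. The mural markers summed to 9.95 to 19.8 CPM in SCA1-High-FAPs, compared with 17.8 to 62.1 CPM in SCA1-Low-FAPs, with *Cspg4* and *Myh11* called higher in the latter, and the glial markers to 9.90 to 19.0 CPM and 5.45 to 8.70 CPM. Replicate 3 of SCA1-Low-FAPs had the highest adipocyte sum and the lowest mural sum of its cell state. In RNA from many cells, fewer cells of a type and less RNA per cell cannot be told apart.

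To show what the members' promoters hold, the sequences of RefSeq (build GRCm38.p6) were searched from 250 bases before to 50 bases after each start site, in windows of 300 bases. They were found for 6 of the 9 members, with 10 start sites, and not for *Adrb3*, *Adcy6* and *Pde3b*. The motifs, searched on both strands, were the cAMP response element TGACGTCA, its short form TGACG, which is contained in the full element, and the C/EBP palindrome TTGCGCAA. Printed 5′ to 3′ are the most upstream *Adcy7* promoter found, chr8:88282742-88283041 on the plus strand, and the more upstream *Prkar2b* promoter found, chr12:32061228-32061527 on the minus strand. They were picked because these members lay on opposite sides of the comparison. The annotated gene start of *Adcy7*, chr8:88272403, lies upstream of its printed window and was not searched. Capitals mark the short form of the cAMP response element, which stands on the opposite strand in *Adcy7*.
Adcy7: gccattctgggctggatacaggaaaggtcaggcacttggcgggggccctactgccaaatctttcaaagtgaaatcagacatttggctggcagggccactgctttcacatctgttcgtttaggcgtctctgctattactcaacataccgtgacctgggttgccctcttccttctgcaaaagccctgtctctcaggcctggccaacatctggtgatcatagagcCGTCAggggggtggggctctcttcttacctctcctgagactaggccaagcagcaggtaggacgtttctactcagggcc
Prkar2b: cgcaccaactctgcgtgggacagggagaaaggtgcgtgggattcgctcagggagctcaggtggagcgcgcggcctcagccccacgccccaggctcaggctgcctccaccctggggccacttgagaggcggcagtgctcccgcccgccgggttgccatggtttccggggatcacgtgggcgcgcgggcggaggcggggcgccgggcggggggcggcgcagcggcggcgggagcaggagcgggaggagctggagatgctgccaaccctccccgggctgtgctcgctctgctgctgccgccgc
The short form began 28 bases before the start site in this *Adcy7* promoter, and the *Prkar2b* promoter held none of the 3 motifs. Among the 10 promoters of the members, 2 held the short form, the other being that of *Adcy9*, against 20.8% of all 32851 promoters in the table. The full element was in none of the 10 and in 1.79% of all promoters, and the C/EBP palindrome was in none of the 10 and in 0.183% of all.

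The receptor *Adrb3* was the member with the widest separation between the cell states, followed by *Adcy7*, which lay in the opposite direction. *Prkar2b* and *Pde3b* were also higher in SCA1-High-FAPs, whereas *Adcy3*, *Adcy4*, *Adcy6*, *Adcy9* and *Pde4d* overlapped between the cell states. Of the 9 members, 4 were called, against 7.68% of all tested genes. In SCA1-High-FAPs 3 members were higher, where 4.36% of tested genes were called in this direction, and 1 member was higher in SCA1-Low-FAPs, where the share was 3.32%. The CPM of the cell states did not overlap for the same 4 members, against 14.1% of all tested genes. Since the members were selected on this contrast, nothing is read from these counts or from the ranks of their fold changes given below. *Adrb3* and *Adcy7* passed the filter on low counts only through the cell state in which they were high.

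**Figure D1:**
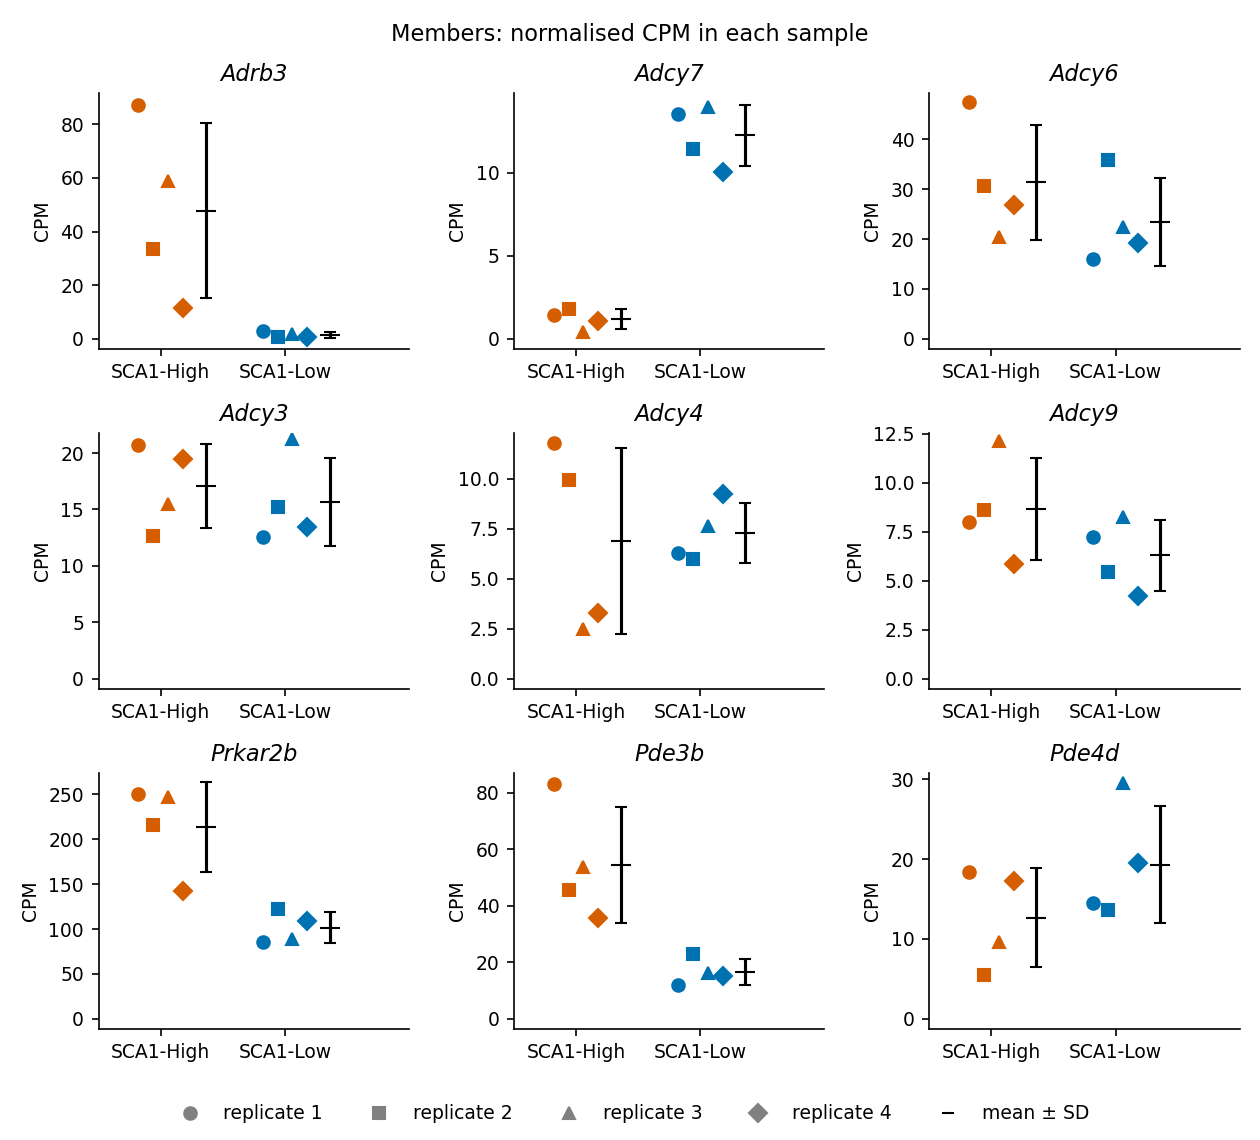
CPM of each of the 9 members (vertical axes, each from about 0 on its own scale) in the 4 SCA1-High-FAPs samples (orange) and the 4 SCA1-Low-FAPs samples (blue), with symbols for replicates and black bars for the mean ± SD (n = 4). *Adrb3*, *Prkar2b* and *Pde3b* stand higher in all SCA1-High-FAPs samples and *Adcy7* in all SCA1-Low-FAPs samples, while the other 5 members overlap.

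*Adrb3* lies on the minus strand of chromosome 8 at chr8:27225776-27250616 of GRCm38. Its mRNA was at 87.1, 33.5, 58.9 and 11.4 CPM in replicates 1 to 4 of SCA1-High-FAPs, from 185, 74, 141 and 31 counts. In SCA1-Low-FAPs it was at 2.90, 0.545, 1.90 and 0.792 CPM, from 6, 1, 6 and 3 counts. Every SCA1-High-FAPs sample was above every SCA1-Low-FAPs sample, and replicate 4 was the lowest of its cell state. The means were 47.7 ± 32.7 CPM and 1.53 ± 1.09 CPM (SD, n = 4 each), and the log2 fold change was −4.94 (SE 0.67). The counts in SCA1-Low-FAPs were few, and the fit was not repeated with another prior count. By DESeq2 the log2 fold change was −4.98. The ratio of the pooled counts was 31.55, with a 95% interval of 19.2 to 55.7 for counting error only. The fold change ranked 2 in size among the 444 genes called higher in SCA1-High-FAPs, on the contrast for which *Adrb3* was chosen. Without replicate 4 of SCA1-High-FAPs the log2 fold change was −5.27, and without replicate 1 of that cell state, its highest sample, it was −4.47. Without replicate 3 of SCA1-Low-FAPs it was −5.11. Over the 8 fits that left out 1 replicate it ran from −5.33 to −4.47. A noncoding antisense gene, *Gm45470*, overlaps exons of *Adrb3* and had 5 and 4 counts in all in the cell states. The strand setting of the counting is not given in the sources used here, so how reads on the overlapping exons were counted is not known.

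*Adrb1*, the beta-1 receptor, had 3, 6, 2 and 0 counts in SCA1-High-FAPs and none in SCA1-Low-FAPs. It was near or under the limit of detection and was not tested, and no difference could be read at this depth. Among the alpha receptors, *Adra1b*, which couples to Gq and raises calcium, was higher in SCA1-High-FAPs at 32.1 ± 6.79 CPM against 14.6 ± 3.53 CPM (SD, n = 4 each; log2 fold change −1.14, SE 0.29, edgeR adjusted *p* = 0.0200). *Adra2a*, which couples to Gi and lowers cAMP, was at 10.9 ± 5.27 CPM and 22.8 ± 7.09 CPM (SD, n = 4 each) and did not pass the test (log2 fold change 1.05, SE 0.40, adjusted *p* = 0.126). The remaining 4 alpha receptors were not tested, and 3 of them had no count in any sample. The call of *Adra1b* was lost without replicate 3 or 4 of SCA1-High-FAPs and without replicate 1 or 4 of SCA1-Low-FAPs (adjusted *p* = 0.0513 to 0.0834).

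*Adcy7*, an adenylyl cyclase of the group that is stimulated by G protein beta-gamma subunits, lies at chr8:88272403-88329962 on the plus strand. It had 3, 4, 1 and 3 counts in SCA1-High-FAPs, or 1.41, 1.81, 0.418 and 1.10 CPM. In SCA1-Low-FAPs it had 28, 21, 44 and 38 counts, or 13.5, 11.4, 14.0 and 10.0 CPM. The cell states did not overlap, and in SCA1-High-FAPs the gene stood at about the least that could be detected. The means were 1.18 ± 0.588 CPM and 12.2 ± 1.84 CPM (SD, n = 4 each), with a log2 fold change of 3.33 (SE 0.58), which ranked 4 of 338 among genes called higher in SCA1-Low-FAPs. The pooled counts gave a ratio of 10.17, with a 95% interval of 5.50 to 20.9 for counting error only. Without replicate 3 of SCA1-Low-FAPs, the sample with the highest CPM, the log2 fold change was 3.25. *Adcy7* was a gene of low level even in SCA1-Low-FAPs, and its mean over all samples was higher than that of 7.55% of the tested genes.

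*Adcy6*, a cyclase inhibited by Gi and by calcium, had the highest CPM of the cyclases. It was at 31.4 ± 11.6 CPM in SCA1-High-FAPs, compared with 23.4 ± 8.77 CPM in SCA1-Low-FAPs (SD, n = 4 each; log2 fold change −0.43, SE 0.32; chr15:98589973-98610076). *Adcy3*, known for its part in olfactory signalling and in adipose tissue, was at 17.1 ± 3.70 CPM and 15.6 ± 3.91 CPM (SD, n = 4 each; log2 fold change −0.12, SE 0.32; chr12:4133103-4213525), and it shares exonic sequence with *Cenpo* on the opposite strand, a gene of 39 and 54 counts. *Adcy9*, a cyclase little affected by forskolin, was at 8.64 ± 2.59 CPM and 6.29 ± 1.80 CPM (SD, n = 4 each; log2 fold change −0.46, SE 0.48; chr16:4287529-4420498). For these 3 members the difference of the means was smaller than the larger of the SDs in each case, and the samples of both cell states were mixed. *Adcy4*, a relative of *Adcy7*, was at 11.8, 9.95, 2.51 and 3.30 CPM in SCA1-High-FAPs, compared with 6.28, 5.99, 7.61 and 9.24 CPM in SCA1-Low-FAPs. The SCA1-High-FAPs samples of *Adcy4* lay on both sides of the SCA1-Low-FAPs samples, and the log2 fold change of 0.11 (SE 0.55) changed sign when single replicates were left out (−0.17 to 0.50; chr14:55769057-55784095).

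Over the whole family, the adenylyl cyclases summed to 97.6 ± 23.9 CPM in SCA1-High-FAPs, compared with 82.3 ± 20.9 CPM in SCA1-Low-FAPs (SD, n = 4 each), from 131 to 306 counts per sample. The difference between the sums was smaller than either SD, and the shares below describe members selected on this contrast. *Adcy7* held 1.19 ± 0.539% of the cyclase counts in SCA1-High-FAPs, compared with 15.5 ± 4.30% in SCA1-Low-FAPs (SD, n = 4 each). The highest share in SCA1-High-FAPs was 1.83% (exact Clopper-Pearson 95% interval 0.502% to 4.63%) and the lowest in SCA1-Low-FAPs was 11.1% (6.97% to 16.4%). *Adcy6* held 31.5 ± 4.10% and 28.1 ± 5.11%, and *Adcy3* 18.0 ± 4.60% and 19.3 ± 3.13% (SD, n = 4 each). *Adcy5*, a cyclase that is not a member and is a close relative of *Adcy6*, held 24.3 ± 0.901% and 14.6 ± 8.38% (SD, n = 4 each). Its shares in SCA1-Low-FAPs spread from 7.26% to 25.8%, and its level did not pass the test (log2 fold change −0.88, SE 0.45, edgeR adjusted *p* = 0.282). *Adcy2* did not pass either (log2 fold change −0.55, SE 0.68, adjusted *p* = 0.716), and the other 3 cyclase genes were not tested. Shares are of 3′ tags, so they carry no statement on protein.

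**Figure D2:**
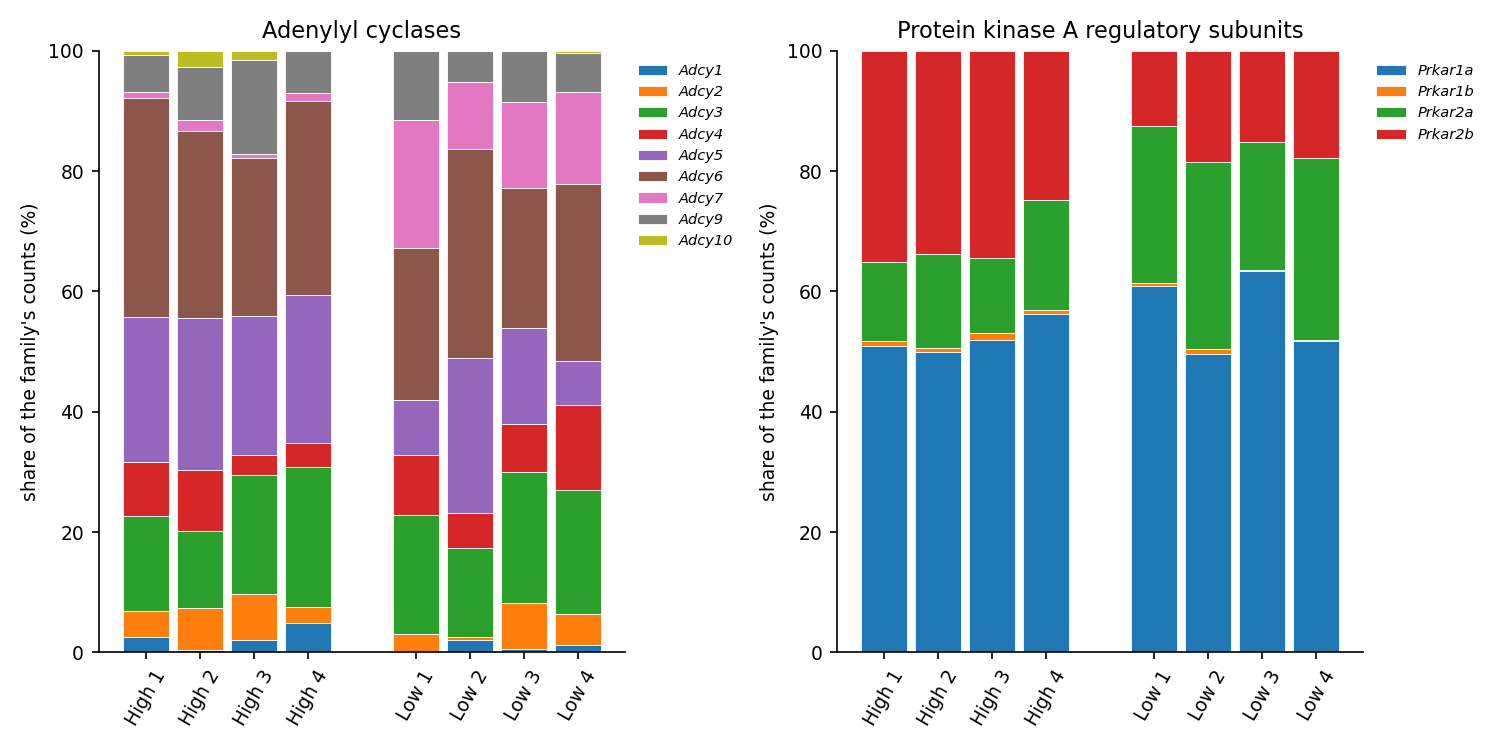
Share of each gene (vertical axes, percent of the family's counts) among the adenylyl cyclases (left) and the regulatory subunits of protein kinase A (right) in each of the 8 samples (horizontal axes). *Adcy7* takes 1.83% or less in SCA1-High-FAPs and 11.1% or more in SCA1-Low-FAPs, and *Prkar2b* takes 24.8% to 35.1% and 12.5% to 18.5%.

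*Prkar2b* encodes the regulatory subunit RII-beta, the form of protein kinase A typical of adipose tissue and brain, and lies at chr12:31958476-32061296 on the minus strand. It was the member with the highest CPM, at 250, 216, 247 and 142 CPM in SCA1-High-FAPs, compared with 85.6, 122, 88.8 and 109 CPM in SCA1-Low-FAPs. The cell states did not overlap, although replicate 4 of SCA1-High-FAPs came close to the highest SCA1-Low-FAPs sample. The means were 214 ± 50.3 CPM and 101 ± 17.2 CPM (SD, n = 4 each), with a log2 fold change of −1.08 (SE 0.19) and of −1.23 without replicate 4 of SCA1-High-FAPs. Over the 8 fits that left out 1 replicate it ran from −1.23 to −0.99. The fold change of *Prkar2b* ranked 282 of the 444 genes called higher in SCA1-High-FAPs.

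*Prkar2a*, which encodes the related subunit RII-alpha, was called higher in SCA1-Low-FAPs. It was the only one called of the 7 other tested genes of protein kinase A subunits and inhibitors (14.3%, against 7.68% of all tested genes). It was at 93.7, 99.9, 88.5 and 105 CPM in SCA1-High-FAPs, compared with 178, 204, 126 and 185 CPM in SCA1-Low-FAPs, for a log2 fold change of 0.84 (SE 0.17, edgeR adjusted *p* = 0.00514). The call was made in all 8 fits that left out 1 replicate. *Prkar1a*, the widespread type I subunit, was at 344 ± 27.5 CPM and 358 ± 45.3 CPM (SD, n = 4 each; log2 fold change 0.06, SE 0.14, adjusted *p* = 0.874). The catalytic subunits *Prkaca* and *Prkacb* did not pass the test, with log2 fold changes of 0.01 (SE 0.17, 95% interval −0.32 to 0.34) and −0.19 (SE 0.16, 95% interval −0.50 to 0.13). The 4 regulatory subunits summed to 660 ± 68.6 CPM in SCA1-High-FAPs, compared with 636 ± 43.0 CPM in SCA1-Low-FAPs (SD, n = 4 each). Within this sum, a comparison chosen after the values were seen, *Prkar2b* held 32.0 ± 4.84% in SCA1-High-FAPs, compared with 16.0 ± 2.73% in SCA1-Low-FAPs, and *Prkar2a* held 14.8 ± 2.67% and 27.2 ± 4.40% (SD, n = 4 each). In each SCA1-High-FAPs sample *Prkar2b* had the larger share of the pair, and in each SCA1-Low-FAPs sample *Prkar2a* had. None of the 8 tested A-kinase anchoring proteins, which hold the kinase at membranes and organelles, was called by edgeR, against 7.68% of all tested genes. Of the 8, 1 had an unadjusted *p*-value under 0.05. The most abundant of them were *Akap12* at 279 ± 91.4 and 303 ± 87.3 CPM and *Akap9* at 161 ± 10.8 and 180 ± 14.8 CPM (SD, n = 4 each).

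*Pde3b*, the phosphodiesterase through which insulin lowers cAMP in adipocytes, lies at chr7:114415281-114539251 on the plus strand. It was at 83.3, 45.7, 53.9 and 35.6 CPM in SCA1-High-FAPs, compared with 12.1, 22.9, 16.2 and 15.3 CPM in SCA1-Low-FAPs. All SCA1-High-FAPs samples were above the highest SCA1-Low-FAPs sample, with replicate 1 highest and replicate 4 lowest, as for *Adrb3*. The means were 54.6 ± 20.6 CPM and 16.6 ± 4.53 CPM (SD, n = 4 each), and the log2 fold change was −1.72 (SE 0.29), rank 131 of 444. *Pde4d*, a cAMP-specific phosphodiesterase bound to beta-arrestins and anchoring proteins, was at 18.4, 5.43, 9.60 and 17.2 CPM in SCA1-High-FAPs, compared with 14.5, 13.6, 29.5 and 19.5 CPM in SCA1-Low-FAPs. Its cell states overlapped (log2 fold change 0.62, SE 0.40; chr13:108449948-109953461), and without replicate 3 of SCA1-Low-FAPs, the highest sample, the value was 0.33.

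Of the 8 other phosphodiesterase genes tested, 1 was called (12.5%, against 7.68% of all tested genes). *Pde1a*, which is activated by calcium and calmodulin and cleaves cGMP and cAMP, was at 138 ± 30.0 CPM in SCA1-High-FAPs, compared with 61.4 ± 20.3 CPM in SCA1-Low-FAPs (SD, n = 4 each; log2 fold change −1.16, SE 0.22, edgeR adjusted *p* = 0.00412). *Pde8a*, an enzyme with high affinity for cAMP, was at 54.6 ± 8.00 and 61.5 ± 13.7 CPM (SD, n = 4 each; log2 fold change 0.17, SE 0.21, adjusted *p* = 0.714). In the sum of the PDE3 and PDE4 genes, also formed after the values were seen, *Pde3b* held 36.9 ± 12.7% in SCA1-High-FAPs, compared with 10.6 ± 1.97% in SCA1-Low-FAPs (SD, n = 4 each). *Pde4b*, named here because it took the largest share in SCA1-Low-FAPs, held 19.3 ± 12.6% and 41.4 ± 1.78% (SD, n = 4 each), and its level did not pass the test (log2 fold change 1.08, SE 0.42, adjusted *p* = 0.155). Without replicate 4 of SCA1-High-FAPs, its highest sample of that cell state, *Pde4b* was called (adjusted *p* = 0.00342). The sum of this group was 149 ± 21.7 CPM and 155 ± 12.9 CPM (SD, n = 4 each), a difference smaller than either SD.

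For the rest of the pathway, 102 genes in 11 lists were taken by family, of which 62 could be tested, 40 had too few reads and 7 of the latter had none. By edgeR, 12 of the 62 were called (19.4%, against 7.68% of all tested genes), 11 of them higher in SCA1-High-FAPs and 1, *Prkar2a*, higher in SCA1-Low-FAPs. The median log2 fold change of the 62 genes was −0.15, beside 0.0003 for all tested genes. The genes of lipolysis accounted for 5 of the 12 calls, and without that list 7 of 55 genes were called (12.7%), with a median of −0.02. The lists were written with earlier results of these data known, so these counts are no independent evidence of a direction.

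**Figure D3:**
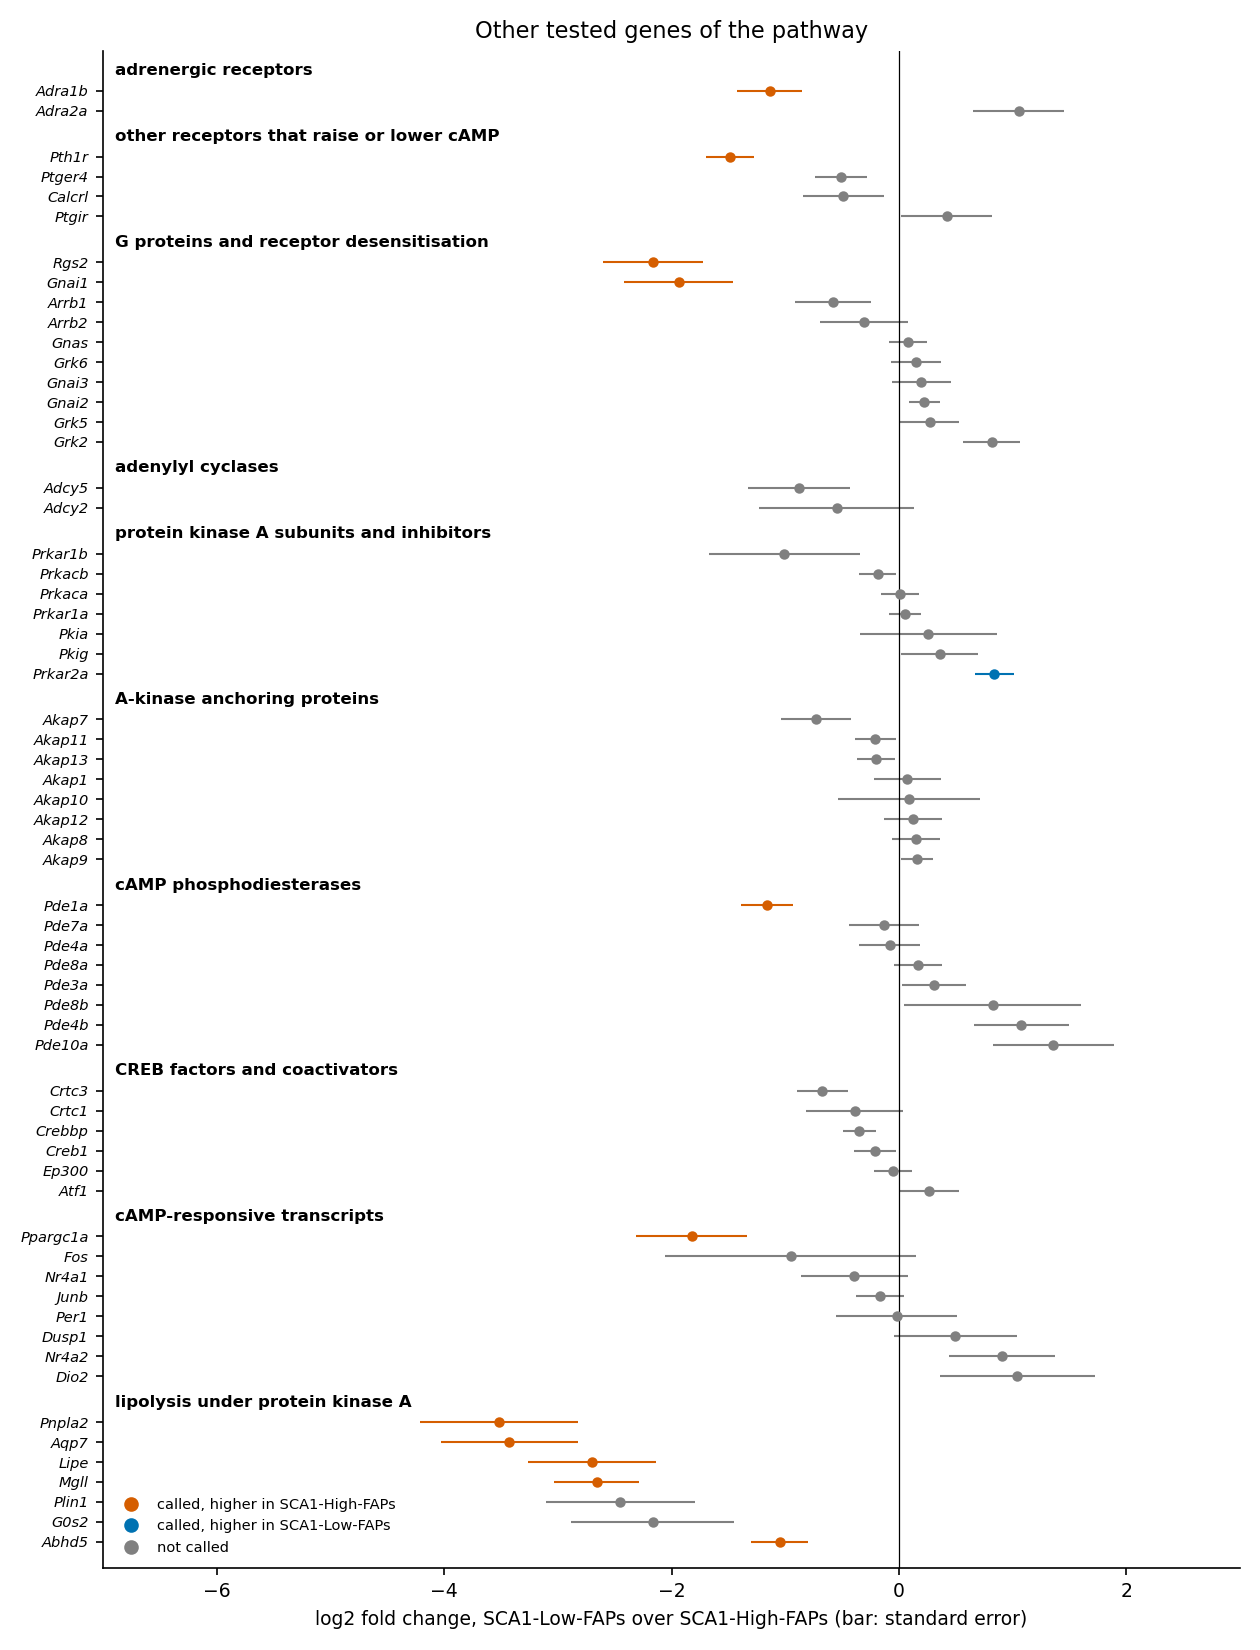
Log2 fold change with SCA1-High-FAPs as the denominator (horizontal axis, points) with its standard error (bars) for the 62 tested pathway genes other than the members, grouped by list. The 11 orange genes were called higher in SCA1-High-FAPs, the blue gene, *Prkar2a*, higher in SCA1-Low-FAPs, and 50 grey genes were not called, among them *Plin1* and *G0s2*, which lie with the other lipolysis genes on the left.

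Among 4 tested receptors that act on cAMP through other ligands, 1 was called. *Pth1r*, the receptor of parathyroid hormone and its related peptide, was at 131 ± 19.4 CPM in SCA1-High-FAPs, compared with 46.6 ± 14.8 CPM in SCA1-Low-FAPs (SD, n = 4 each; log2 fold change −1.48, SE 0.21, edgeR adjusted *p* = 0.000672). *Ptger4*, a prostaglandin E2 receptor coupled to the stimulatory G protein, did not pass the test (log2 fold change −0.51, SE 0.23, adjusted *p* = 0.207). *Gnas*, the stimulatory G protein alpha subunit that links these receptors to the cyclases, was at 1173 ± 232 and 1244 ± 214 CPM (SD, n = 4 each; log2 fold change 0.08, SE 0.17, adjusted *p* = 0.835). Of the 10 tested genes of G proteins and receptor desensitisation, 2 were called (20.0%, against 7.68% of all tested genes). Both were higher in SCA1-High-FAPs. *Gnai1*, an inhibitory G protein subunit, was at 29.7 ± 17.4 and 7.52 ± 5.01 CPM (SD, n = 4 each; log2 fold change −1.94, SE 0.48, adjusted *p* = 0.0207), with overlap between the cell states. *Rgs2*, a regulator that ends G protein signals, was at 57.6 ± 27.1 and 12.6 ± 8.11 CPM (SD, n = 4 each; log2 fold change −2.16, SE 0.44, adjusted *p* = 0.00949), and its replicate 3 of SCA1-Low-FAPs, at 24.7 CPM, was above replicate 4 of SCA1-High-FAPs at 24.2 CPM. *Gnai2*, the inhibitory subunit with the highest CPM, was at 822 ± 72.7 and 961 ± 89.9 CPM (SD, n = 4 each) and did not pass (log2 fold change 0.22, SE 0.14, adjusted *p* = 0.380). The call of *Gnai1* was lost without replicate 3 of SCA1-High-FAPs and without replicate 1, 2 or 4 of SCA1-Low-FAPs (adjusted *p* = 0.0683 to 0.0804). *Hcar1*, a receptor of the other-ligand list, had too few counts for the main fit. It had 42, 20, 11 and 6 counts in SCA1-High-FAPs, compared with 0, 1, 0 and 4 in SCA1-Low-FAPs. By DESeq2 its log2 fold change was −4.35 (adjusted *p* = 0.000896).

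Downstream of the kinase, none of the 6 tested CREB factors and coactivators was called by edgeR, against 7.68% of all tested genes. Of the 6, however, 2 had an unadjusted *p*-value under 0.05. The most abundant were the acetyltransferases *Crebbp* (log2 fold change −0.35, SE 0.15, adjusted *p* = 0.173) and *Ep300* (log2 fold change −0.05, SE 0.17, adjusted *p* = 0.909). Of the 8 tested cAMP-responsive transcripts, 1 was called (12.5%, against 7.68% of all tested genes). *Ppargc1a*, a coactivator of mitochondrial genes, was at 22.2 ± 6.37 CPM in SCA1-High-FAPs, compared with 5.97 ± 5.38 CPM in SCA1-Low-FAPs (SD, n = 4 each; log2 fold change −1.82, SE 0.49, adjusted *p* = 0.0297). Its call held only without replicate 4 of SCA1-High-FAPs or replicate 3 of SCA1-Low-FAPs when single replicates were left out, and the other 6 fits gave an adjusted *p* of 0.0524 to 0.0922. The immediate early genes *Fos* and *Junb*, which respond to many signals, did not pass (log2 fold changes −0.95, SE 1.10, and −0.17, SE 0.21; adjusted *p* = 0.704 and 0.717). None of the 5 genes of other cAMP effectors was tested, because their counts were too low. *Rapgef3*, the exchange factor EPAC1, had 1, 2, 7 and 6 counts in SCA1-High-FAPs, compared with 26, 14, 11 and 26 in SCA1-Low-FAPs, and *Rapgef4* had 11 and 5 counts in all.

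The genes of lipolysis, a process that protein kinase A starts in adipocytes, lay on the side of *Adrb3*. Of 7 genes, 5 were called (71.4%, against 7.68% of all tested genes), all higher in SCA1-High-FAPs, and the median log2 fold change was −2.66. The list was written with earlier results of these data known. *Pnpla2*, the triglyceride lipase of the first step, was at 324, 166, 257 and 42.5 CPM in SCA1-High-FAPs, compared with 12.6, 10.9, 30.1 and 13.5 CPM in SCA1-Low-FAPs (log2 fold change −3.52, SE 0.70, edgeR adjusted *p* = 0.0286). *Lipe*, hormone-sensitive lipase, was at 114 ± 63.1 and 17.9 ± 5.80 CPM (SD, n = 4 each; log2 fold change −2.70, SE 0.56, adjusted *p* = 0.0244). *Mgll*, the lipase of the last step, was at 45.1 ± 20.8 and 7.20 ± 1.30 CPM (SD, n = 4 each; log2 fold change −2.66, SE 0.37, adjusted *p* = 0.000612). Each of these 3 lipases had its lowest SCA1-High-FAPs level in replicate 4. *Abhd5*, the coactivator of *Pnpla2*, was higher with a log2 fold change of −1.05 (SE 0.25, adjusted *p* = 0.0163). *Aqp7*, a channel for the glycerol released, had a log2 fold change of −3.43 (SE 0.60, adjusted *p* = 0.00220). *Plin1*, the droplet coat protein, did not pass, at 200 ± 110 and 37.1 ± 18.2 CPM (SD, n = 4 each; log2 fold change −2.45, SE 0.65, adjusted *p* = 0.0751), and neither did *G0s2*, the inhibitor of *Pnpla2* (log2 fold change −2.16, SE 0.72, adjusted *p* = 0.120). With the replicate number as a block both were called, with adjusted *p* = 8.25e-05 for *Plin1* and 0.0356 for *G0s2*. *Mgll* and *Aqp7* were called in all 8 fits that left out 1 replicate. *Lipe* lost its call without replicate 3 of SCA1-High-FAPs or any replicate of SCA1-Low-FAPs (adjusted *p* = 0.0532 to 0.0889), *Pnpla2* without replicate 2 or 3 of SCA1-High-FAPs or 1, 2 or 4 of SCA1-Low-FAPs (0.0509 to 0.111), and *Abhd5* without replicate 1 of SCA1-High-FAPs or 1 or 4 of SCA1-Low-FAPs (0.0507 to 0.0611). *Plin1* was called without replicate 4 of SCA1-High-FAPs (adjusted *p* = 0.00906) and *G0s2* without replicate 3 of SCA1-High-FAPs (adjusted *p* = 0.0403).

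The level of *Adrb3* was set beside those of the adipocyte genes sample by sample. Its order within SCA1-High-FAPs, with replicate 1 highest, then 3, 2 and 4, was also that of the adipocyte marker sum (5372, 2462, 1932 and 1025 CPM) and of *Adipoq*, the adiponectin gene (608, 421, 169 and 60.1 CPM). *Fabp4* and *Plin1* had replicate 2 above replicate 3, and *Cidec* had replicate 2 lowest. In SCA1-Low-FAPs *Adrb3* had 6, 1, 6 and 3 counts in replicates 1 to 4, too few to order the replicates. The adipocyte marker sum and *Adipoq* were highest in replicate 3. Over the 8 samples, which form 2 cell states and share their libraries across genes, the Pearson *r* of *Adrb3* on log2 CPM was 0.973 with *Adipoq*, 0.973 with *Aqp7*, 0.972 with *Mgll* and 0.969 with *Pnpla2*, against 0.940 with *Lipe*, 0.898 with *Plin1* and 0.750 with *Pparg*. When the cell state means had been subtracted, a calculation added after the data had been seen, these were 0.849, 0.855, 0.821, 0.859, 0.817, 0.700 and 0.506. Values with the means removed include the SCA1-Low-FAPs samples, in which *Adrb3* had too few counts to order them. They cannot show whether genes vary together with *Adrb3* within that cell state. The part of the adipocyte markers in the difference of *Adrb3* was not tested. Of the other members, *Prkar2b* and *Pde3b* had an *r* of 0.901 and 0.907 with *Adrb3*, and 0.469 and 0.434 with the means removed. *Adcy7* had an *r* of −0.895 with *Adrb3*, which follows the contrast on which both were selected, and of 0.06 with the means removed. *Adcy7* had 1 to 4 counts per sample in SCA1-High-FAPs, and *Adrb3* 1 to 6 in SCA1-Low-FAPs. The value with the means removed therefore cannot show whether the 2 genes vary together.

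**Figure D4:**
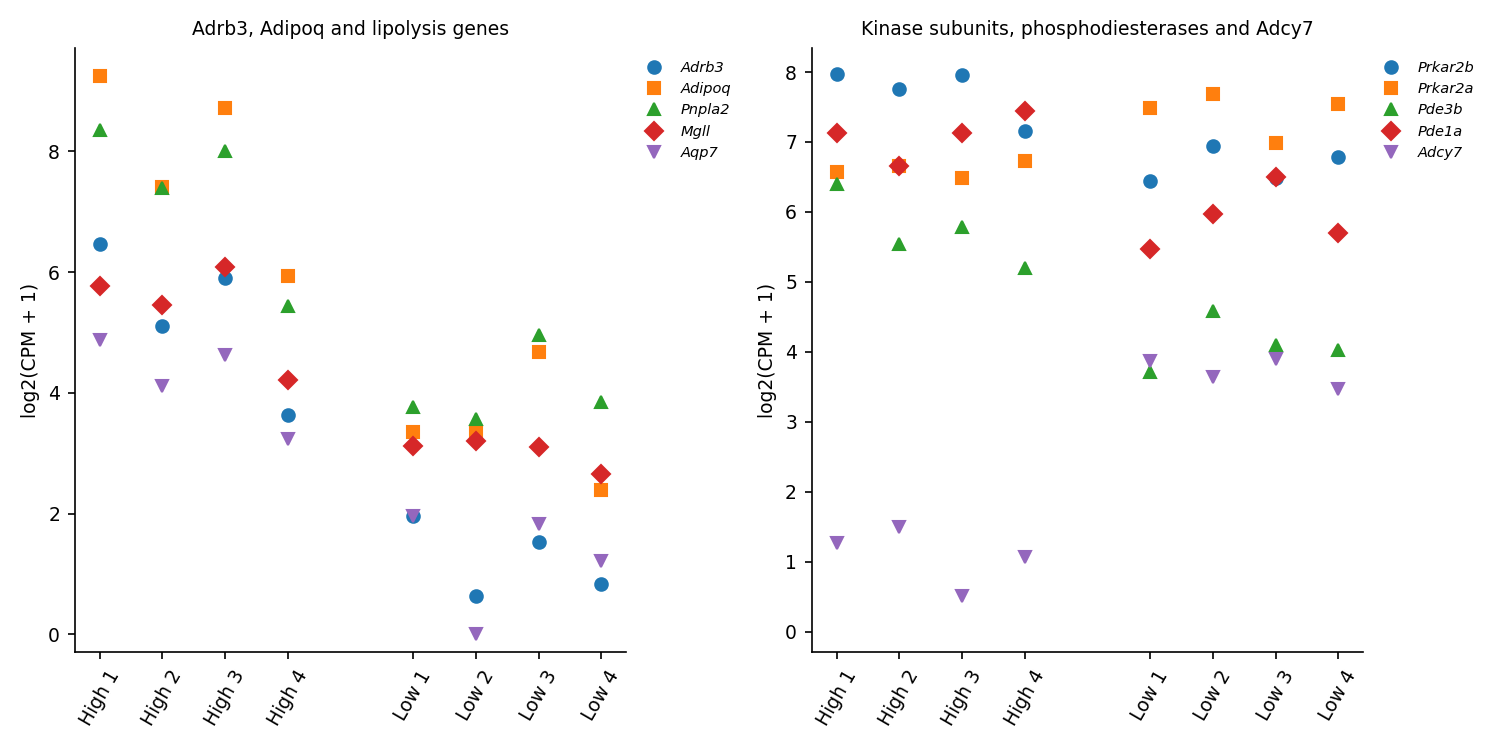
Log2(CPM + 1) (vertical axes) in each of the 8 samples (horizontal axes) of *Adrb3*, *Adipoq* and 3 lipolysis genes (left) and of *Prkar2b*, *Prkar2a*, *Pde3b*, *Pde1a* and *Adcy7* (right). On the left all 5 genes are lowest in replicate 4 within SCA1-High-FAPs, and on the right *Prkar2a* and *Adcy7* stand higher in SCA1-Low-FAPs and the other 3 genes higher in SCA1-High-FAPs.

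The 5 tested genes with the highest *r* to *Adrb3* were *B2m*, *Nfia*, *Col5a3*, *Retn* and *Atp6v1b2*, at 0.988 to 0.990 over 8 samples. *Retn*, which encodes the adipokine resistin, was at 26.5 ± 18.1 CPM in SCA1-High-FAPs, compared with 1.16 ± 0.882 CPM in SCA1-Low-FAPs (SD, n = 4 each). *Nfia*, a transcription factor, was at 317 ± 98.6 and 91.7 ± 12.4 CPM, and *Col5a3*, a collagen V chain, at 295 ± 89.1 and 96.7 ± 16.8 CPM (SD, n = 4 each). *B2m*, the light chain of MHC class I, and *Atp6v1b2*, a subunit of the vacuolar proton pump, had the smaller log2 fold changes of −0.67 and −0.45. With the means of the cell states removed, the 5 genes had an *r* of 0.923 to 0.937 and stood at places 9 to 16 among the tested genes. These values too include the SCA1-Low-FAPs samples, in which *Adrb3* had few counts. For *Adcy7* the 5 nearest genes were *Magoh*, *Tpm4*, *Dbnl*, *Fnbp1l* and *Fscn1*, at 0.965 to 0.975 over 8 samples. *Magoh* encodes a part of the exon junction complex, whereas the others encode proteins that bind or organise actin. With the means removed their *r* was between 0.182 and 0.755, and none stayed among the first 50 genes. *Adcy7* had 1 to 4 counts per sample in SCA1-High-FAPs, so these values rest on few counts there.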

How the data were processed

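Total RNA of 8 cultures was made into 3′ mRNA libraries. The authors aligned the reads to mm10 with STAR, counted unique alignments on genes with HTSeq and deposited raw counts per gene without normalisation. The strand setting is not given in the sources used here. Summary entries of the counter were left out. Of 31053 genes, 30934 were named by GENCODE M21. Tests used edgeR 4.0.16 in R 4.3.3 (robust quasi-likelihood, TMM, filterByExpr with 10 counts and 15 in total, Benjamini-Hochberg) on all 10181 genes that passed. The standard error is the size of the log2 fold change over the square root of F. CPM are TMM-normalised, and correlations used log2 CPM with a prior count of 2. The fits were tested on simulated data. Alternatives were DESeq2 1.42.0, RLE factors, other filters, a replicate block, each replicate left out and an adjusted *p*-value of 0.01. Intervals and the limit of 3 counts cover counting error only, since no molecular identifiers are named. Tables and figures used Python 3.11.15 and matplotlib 3.10.9.

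The members and lists were chosen with earlier results of these data known. Named were the members, the called pathway genes, the 2 genes of each list with the highest CPM, *Adrb1*, the 5 genes nearest to *Adrb3* and to *Adcy7*, and markers on which a result turned. *Prkaca*, *Prkacb*, *G0s2*, *Pde4b*, *Grk2*, *Hcar1* and *Pparg* were named after their values were seen. The design names 4 mice for the 8 samples, but whether equal replicate numbers mean the same mouse is not stated, so the main fit had no block. Protein sequences were not used here, and 1 gene that the rule names is not reported here.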

Additional observations from a re-analysis of the deposited data

Results flagged for a closer look

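In 60 groups of 4 samples, 6 values lay farther from the rest of their group than Dixon's limit at the 95% level allows. Chance alone marks about 1 in 20 such groups. In replicate 3 of SCA1-Low-FAPs, *Pth1r* was at 68.8 CPM beside 38.3 to 39.7 CPM in the other replicates. In the same sample *Rgs2* was at 24.7 CPM beside 8.18 to 8.71 CPM, and *Pnpla2* was at 30.1 CPM beside 10.9 to 13.5 CPM. In replicate 2 of SCA1-Low-FAPs, the myogenic markers summed to 12.5 CPM beside 0 to 1.32 CPM, and the glial markers to 5.45 CPM, the lowest, beside 8.45 to 8.70 CPM. In replicate 4 of SCA1-High-FAPs, *Prkar2b* held 24.8% of the counts of the regulatory subunits of protein kinase A, the lowest share, beside 33.8% to 35.1%.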

How the results depend on the processing

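The members were selected on this contrast, so how often they were called is no support for their differences. Each fit that left out 1 replicate called 4 members, 3 with more mRNA in SCA1-High-FAPs and 1 with less. The log2 fold changes of *Adrb3*, *Adcy7*, *Prkar2b* and *Pde3b* ran from −5.33 to −4.47, 3.06 to 3.60, −1.23 to −0.99 and −1.89 to −1.44. A filter of 10 counts in every sample removed *Adrb3*, *Adcy7* and *Adcy4*, which left 0 members called higher in SCA1-Low-FAPs. With the adjusted *p* at 0.01, 307 genes were called in all (181 higher in SCA1-High-FAPs, 126 in SCA1-Low-FAPs) and 6 pathway genes (5 higher in SCA1-High-FAPs). Pathway genes higher in SCA1-Low-FAPs numbered 3 by DESeq2, which called 17, and 2 without a filter, *Prkar2a* and *Grk2* (adjusted *p* = 0.0316 for the latter). *Hcar1* and *Rapgef3*, which had too few counts for the main fit, were called by DESeq2 (adjusted *p* = 0.000896 and 0.0391), and without a filter *Hcar1* was called and *Rapgef3* was not (0.000466 and 0.0729). DESeq2 also called *Plin1*, *G0s2* and *Grk2* (0.00360, 0.0474 and 0.0368), and *Lipe* lost its call without a filter (0.0622). None of the 5 genes nearest to *Adcy7* was among the first 50 with Spearman's coefficient (0) or with the means of the cell states removed (0, added after the data had been seen).

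Leaving out 1 replicate gave 410 to 1017 called genes (246 to 583 higher in SCA1-High-FAPs, 159 to 434 in SCA1-Low-FAPs) and 6 to 13 pathway genes (5 to 11 and 1 to 3). The counts fell most without replicate 4 of SCA1-Low-FAPs (410 genes, 6 of the pathway) and without replicate 1 (417 and 7), and without replicate 3 of SCA1-High-FAPs 7 pathway genes were higher in SCA1-High-FAPs. Pathway genes higher in SCA1-Low-FAPs numbered 2 without replicate 2 or 4 of SCA1-High-FAPs and 3 without replicate 3 of SCA1-Low-FAPs, and genes of all kinds 223 without replicate 2 of SCA1-Low-FAPs. The cause was not tested. The mean cyclase share of *Adcy7* ran from 0.979% to 1.41% in SCA1-High-FAPs and from 13.6% to 17.0% in SCA1-Low-FAPs, and 4 to 5 of its nearest genes and 5 to 5 of those of *Adrb3* stayed among the first 50.

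The replicate block gave 697 called genes, 14 pathway genes and 4 members. Over all tested genes, deviations from the cell state means had an *r* of −0.0165, 0.00673, −0.0137 and −0.0502 between same-numbered samples. Such a value over all genes cannot show whether some genes follow the replicate number. By edgeR, *Plin1* and *G0s2* were called with the block (adjusted *p* = 8.25e-05 and 0.0356) and not without it (0.0751 and 0.120), while 782 genes in all were called without it. Whether the numbers pair the samples therefore remained unknown.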
